A study of Mus musculus with 6 samples.

Results

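The intrinsic, or mitochondrial, cell death pathway was followed through 9 genes chosen by name: the effectors Bax and Bak1, the survival genes Bcl2 and Bcl2l1, the sensor genes Bcl2l11, Bbc3 and Bid, and the apoptosome genes Apaf1 and Casp9. All 9 were among the 13072 genes of the deposited gene table, and 21 of the 26721 transcripts in the deposited transcript table belonged to them. Expression was measured by sequencing of polyadenylated RNA from whole mouse retinas at postnatal day 7. There were 3 libraries labelled wild type (WT) and 3 labelled CTGF-/- (CTGF_KO below). Both groups had a C57BL/6 background, and no treatment was named for either. The knockout was made with an inducible Cre/lox system directed at Ctgf, the gene of connective tissue growth factor, which cells release into the matrix around them. The labels name neither the Cre driver, nor the inducing agent, nor the deleted exons. They also do not say whether each library came from 1 animal, so p-values measure the spread between libraries, which may be partly technical. In RNA from a whole tissue, fewer cells of a type and less RNA per cell cannot be told apart.

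In the intrinsic pathway, BAX and BAK1 form pores in the outer mitochondrial membrane, and BCL2 and BCL-XL (the product of Bcl2l1) hold them in check. The BH3-only proteins BIM (Bcl2l11), PUMA (Bbc3) and BID tip this balance by binding both kinds of protein through a short helix called BH3. Cytochrome c released through the pores assembles with APAF1 into the apoptosome, which activates the initiator caspase CASP9. In the mouse retina, neurons made in excess die in waves during the early postnatal period, and loss of Bax spares many ganglion cells from this death.

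The BH3 helix is what the BCL2 family members above share, and its coding stretch is shown for the 7 genes that have one, because transcripts with and without it are set apart below. The sequences are from the GENCODE M21 transcripts on GRCm38, 5′ to 3′ on the coding strand. Capitals mark the codon of the conserved leucine and the codon pair for glycine (alanine in Bbc3) and aspartate.
Bax, chr7:45465997-45466032 (-): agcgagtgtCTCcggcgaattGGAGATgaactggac
Bak1, chr17:27022531-27022566 (-): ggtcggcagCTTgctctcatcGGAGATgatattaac
Bcl2, chr1:106712575-106712610 (-): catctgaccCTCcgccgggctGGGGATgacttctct
Bcl2l1, chr2:152829697-152829732 (-): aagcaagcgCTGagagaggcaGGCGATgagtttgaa
Bcl2l11, chr2:128147141-128147176 (+): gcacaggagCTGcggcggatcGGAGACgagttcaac
Bbc3, chr7:16313764-16313799 (+): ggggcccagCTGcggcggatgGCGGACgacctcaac
Bid, chr6:120897289-120897324 (-): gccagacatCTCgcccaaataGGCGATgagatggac

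The files hold FPKM (fragments scaled to feature length and library size) and no read counts, so the depth of each library is unknown. The total of gene FPKM lay between 208436 and 216436 in WT and between 217674 and 230474 in CTGF_KO. Per-library values below are in the order of replicates 1, 2 and 3. CTGF_KO replicate 2 stood apart at the transcript level: 1875 of its transcripts were at 0, and no other library had more than 861. Ctgf itself was at 0.932, 0.777 and 1.51 FPKM in the WT libraries and 0.587, 1.0002 and 0.526 FPKM in the CTGF_KO libraries, and the groups overlapped, so it did not check the labels. The tissue expressed rod markers, whose 6 genes had a summed level between 430 and 622 FPKM in WT libraries and between 608 and 710 FPKM in CTGF_KO libraries. All 6 were higher in mean in CTGF_KO, 3 of them at an unadjusted p under 0.05. Of the 5 cone markers, 3 were higher, 2 of them at that p, with summed levels of 94.2 to 101 FPKM in WT and 111 to 129 FPKM in CTGF_KO. All 6 endothelial markers were lower, 1 of them at that p, with summed levels of 43.4 to 51.2 FPKM in WT and 35.8 to 37.1 FPKM in CTGF_KO. The 6 lens markers had a summed level between 0.329 and 428 FPKM in WT libraries and between 167 and 2960 FPKM in CTGF_KO libraries. Lens RNA thus differed widely between libraries. All 6 lens markers were higher in mean in CTGF_KO, 4 of them at an unadjusted p under 0.05, and the groups overlapped in each. The 5 horizontal cell markers, all lower in mean and 2 of them at an unadjusted p under 0.05, had a summed level of 31.3 to 34.9 FPKM in WT and 23.98 to 27.3 FPKM in CTGF_KO. The 7 ganglion cell markers had a summed level of 212 to 291 FPKM in WT and 186 to 302 FPKM in CTGF_KO. Of these, 1 was higher and 6 were lower in mean, 2 of the lower ones at an unadjusted p under 0.05. Summed levels follow the most abundant markers. In the mean of log2(FPKM + 1) over the markers of a set, the groups were apart for horizontal cells. By that mean they overlapped for rods, cones, endothelial cells, lens, ganglion cells, bipolar cells, amacrine cells and erythroid cells. Of the amacrine markers, 5 were lower and 1 higher in mean, 2 of the lower ones at an unadjusted p under 0.05. Of the 5 bipolar markers tested, 3 were lower and 2 higher, 1 of the lower ones at that p. Erythroid markers had a summed level of 94.6 to 612 FPKM in WT and 138 to 323 FPKM in CTGF_KO. The part of lens RNA and of these cell types in the values below was not tested.

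No difference between CTGF_KO and WT retinas larger than the spread between libraries was detected for any of the 9 genes. In limma, 0 of 9 passed an adjusted p of 0.05, where 0.0465% of the 12915 genes tested did. At an unadjusted p under 0.05 the count was also 0 of 9, with and without moderation of variances, against 9.32% of all genes. The groups overlapped in each of the 9 genes, whereas they did not overlap in 18.5% of all genes. Every difference below is CTGF_KO minus WT in mean log2(FPKM + 1), the scale on which weakly expressed genes change less than their FPKM. Of the 9 differences 3 were above 0 (Bax, Bak1 and Bbc3) and 6 below, although Bak1 moved to −0.0065 when the libraries were rescaled to equal FPKM totals. Their median was −0.072, beside −0.022 over all genes.

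**Figure D1:**
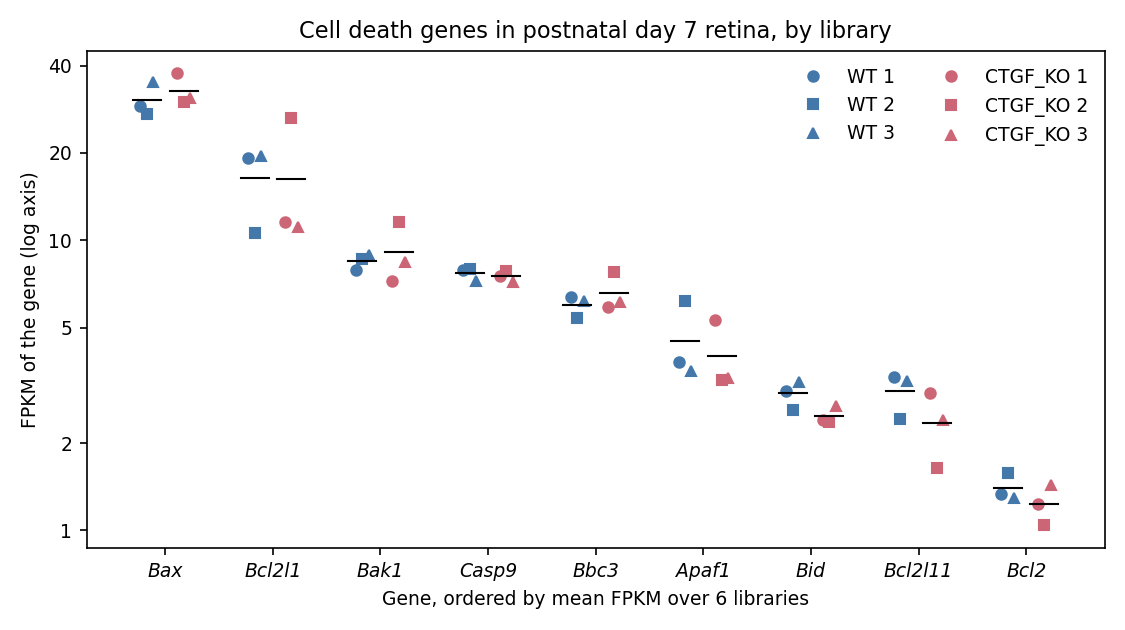
Gene FPKM (log axis) of the 9 genes in each library; blue symbols are WT, red symbols CTGF_KO, symbol shapes the replicates, and black lines the group means. The colours overlap in every gene, Bcl2l1 shows a wide spread within both groups, and Casp9 the narrowest.

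Bax was the most abundant of the 9 genes per unit length. Bax (ENSMUSG00000003873.11, chromosome 7, 45461697 to 45466898, minus strand) was at 29.02, 27.2 and 35.2 FPKM in the WT libraries and 37.6, 29.9 and 30.98 FPKM in the CTGF_KO libraries. CTGF_KO replicate 1 was the highest library and WT replicate 2 the lowest, and the other CTGF_KO libraries lay within the WT range. The difference was 0.11 (SE 0.13, limma adjusted p = 0.747), and its 95% interval ran from a 0.874-fold to a 1.32-fold ratio of FPKM + 1. Leaving out 1 library moved it between 0.0062 (without CTGF_KO replicate 1) and 0.21 (without WT replicate 3), and equal FPKM totals brought it to 0.026. In M21 the gene shares 192 exon bases with the overlapping gene Gm45808 on the same strand, so its reads could be divided differently. Bak1 (ENSMUSG00000057789.13, chromosome 17, 27019810 to 27029009, minus strand), the second effector, was at 7.92, 8.59 and 8.91 FPKM in the WT libraries and 7.21, 11.6 and 8.44 FPKM in the CTGF_KO libraries. CTGF_KO replicate 2 was the highest and CTGF_KO replicate 1 the lowest, so the CTGF_KO group enclosed all WT values. The difference was 0.068 (SE 0.16, limma adjusted p = 0.875). It was −0.10 without CTGF_KO replicate 2. Bak1 shares 437 exon bases in M21 with Ggnbp1 on the opposite strand, and how strand was handled in counting is not stated in the labels. Ggnbp1 was at 0.765, 4.76 and 4.16 FPKM in the WT libraries and 4.08, 0.783 and 4.32 FPKM in the CTGF_KO libraries, lowest in WT replicate 1 and CTGF_KO replicate 2, and its part in the Bak1 values was not tested.

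The survival genes differed in level by about an order of magnitude. Bcl2l1 (ENSMUSG00000007659.18, chromosome 2, 152780668 to 152831728, minus strand) was at 19.2, 10.6 and 19.5 FPKM in the WT libraries and 11.5, 26.4 and 11.1 FPKM in the CTGF_KO libraries. The libraries fell into a high set (WT replicates 1 and 3 and CTGF_KO replicate 2) and a low set (WT replicate 2 and CTGF_KO replicates 1 and 3), and this split crossed the groups. The group means were nearly equal, at 16.4 ± 5.04 FPKM over the WT and 16.3 ± 8.699 FPKM over the CTGF_KO libraries (SD, n = 3). CTGF_KO replicate 2 lay above the high WT libraries, and this highest library was 2.48 times the lowest. The difference of −0.072 (SE 0.35, limma adjusted p = 0.944) had a 95% interval from 0.535-fold to 1.69-fold, the widest of the 9. Its sign depended on single libraries, with a range of −0.46 (without CTGF_KO replicate 2) to 0.13 when 1 library was left out. Bcl2 (ENSMUSG00000057329.7, chromosome 1, 106538178 to 106714274, minus strand) was the weakest of the 9, at 1.33, 1.57 and 1.296 FPKM in the WT libraries and 1.23, 1.04 and 1.43 FPKM in the CTGF_KO libraries. WT replicate 2 was the highest and CTGF_KO replicate 2 the lowest library, and the difference was −0.10 (SE 0.11, limma adjusted p = 0.702). It was −0.054 without WT replicate 2, −0.041 without CTGF_KO replicate 2, −0.17 without CTGF_KO replicate 3 and −0.17 with a pseudocount of 0.1 FPKM. Bcl2 shares 558 exon bases in M21 with the antisense gene D630008O14Rik.

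Among the BH3-only genes, Bbc3 was the most abundant and the other two were both lower in mean in CTGF_KO without passing the test. Bbc3 (ENSMUSG00000002083.13, chromosome 7, 16308393 to 16318205, plus strand), which encodes PUMA and is a transcriptional target of p53, was at 6.38, 5.42 and 6.18 FPKM in the WT libraries and 5.91, 7.78 and 6.12 FPKM in the CTGF_KO libraries. CTGF_KO replicate 2 was the highest library, and the difference was 0.12 (SE 0.12, limma adjusted p = 0.708). It was 0.0071 without that library, 0.054 without WT replicate 2, 0.18 without CTGF_KO replicate 1 and 0.044 with equal FPKM totals. Bcl2l11 (ENSMUSG00000027381.16, chromosome 2, 128126038 to 128162547, plus strand), which encodes BIM, was at 3.38, 2.42 and 3.26 FPKM in the WT libraries and 2.96, 1.64 and 2.41 FPKM in the CTGF_KO libraries. CTGF_KO replicate 2 was the lowest and WT replicate 1 the highest library. Its difference was −0.28 (SE 0.17, limma adjusted p = 0.577), with a 95% interval from 0.623-fold to 1.09-fold. It was −0.12 without CTGF_KO replicate 2 and −0.41 without CTGF_KO replicate 1. Bid (ENSMUSG00000004446.12, chromosome 6, 120891930 to 120916853, minus strand), whose product links death receptors to mitochondria after cleavage by caspase 8, was at 3.04, 2.61 and 3.25 FPKM in the WT libraries and 2.39, 2.37 and 2.68 FPKM in the CTGF_KO libraries. CTGF_KO replicate 3 lay just above WT replicate 2, and this was the only overlap between the groups. Bid had the smallest unadjusted limma p of the 9 (0.106), with a difference of −0.19 (SE 0.10, limma adjusted p = 0.558). In M21 the locus shares 628 exon bases with Bcl2l13 on the opposite strand, and Bcl2l13 itself was steady at 13.1 to 13.98 FPKM over the 6 libraries.

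The apoptosome genes were at middle levels. Casp9 (ENSMUSG00000028914.13, chromosome 4, 141793612 to 141815976, plus strand) was at 7.91, 7.94 and 7.21 FPKM in the WT libraries and 7.51, 7.83 and 7.21 FPKM in the CTGF_KO libraries. Its highest library was 1.102 times its lowest, and the difference was −0.029 (SE 0.083, limma adjusted p = 0.902). The 95% interval of 0.857-fold to 1.12-fold was the narrowest of the 9 genes. With equal FPKM totals the difference was −0.10, and leaving out 1 library moved it between −0.069 (without WT replicate 3) and −0.0023 (without CTGF_KO replicate 3). Casp9 shares 94 exon bases with genes on the opposite strand, Cela2a and Ctrc. Apaf1 (ENSMUSG00000019979.12, chromosome 10, 90989311 to 91082770, minus strand) was at 3.82, 6.16 and 3.54 FPKM in the WT libraries and 5.32, 3.31 and 3.36 FPKM in the CTGF_KO libraries. WT replicate 2 and CTGF_KO replicate 1 were high and the other 4 libraries lay close together, so again the split crossed the groups. The difference was −0.13 (SE 0.22, limma adjusted p = 0.818), and it was 0.072 without WT replicate 2.

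**Figure D2:**
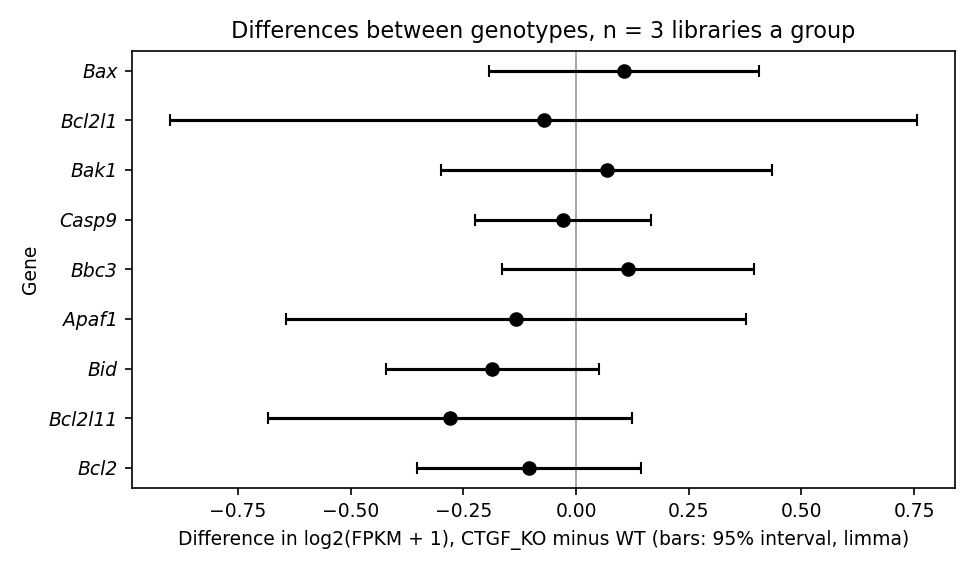
Difference in mean log2(FPKM + 1), CTGF_KO minus WT, for each gene, with the 95% interval from limma (n = 3 libraries a group). Every interval includes 0, from the narrow interval of Casp9 to the wide one of Bcl2l1.

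Per unit length, the genes ranked Bax, Bcl2l1, Bak1, Casp9, Bbc3, Apaf1, Bid, Bcl2l11 and Bcl2, with mean FPKM over the 6 libraries of 31.6, 16.4, 8.78, 7.602, 6.299, 4.25, 2.72, 2.68 and 1.32. The ranges over the 6 libraries were apart for 3 neighbouring pairs: Bax and Bcl2l1, Apaf1 and Bid, and Bcl2l11 and Bcl2. The other 5 neighbouring pairs had overlapping ranges. Among these, Bid lay above Bcl2l11 in 3 of the 6 libraries, so their order was not resolved. The FPKM of Bax was 1.51, 2.56 and 1.803 times that of Bcl2l1 in the WT libraries and 3.27, 1.13 and 2.79 times in the CTGF_KO libraries. Bax was thus above Bcl2l1 in every library, least in CTGF_KO replicate 2 and most in CTGF_KO replicate 1. The ratio of Bax to Bcl2 came to 21.7, 17.3 and 27.2 in the WT libraries and to 30.5, 28.7 and 21.6 in the CTGF_KO libraries, and these ranges overlapped too.

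The genes differed widely in their spread between libraries of 1 group. The within-group SD of log2(FPKM + 1) was 0.58 for Bcl2l1, larger than that of 98.2% of the genes tested. It was 0.34 for Apaf1, above 93.4% of genes, and 0.061 for Casp9, above 7.63%. The genes whose log2(FPKM + 1) was most like that of Bcl2l1 over the 6 libraries were Add1, Afg1l and Iscu (Pearson r of 0.995, 0.993 and 0.983, the top 3 of 11934 genes of at least 1 FPKM). Bcl2l1 was chosen for this after its values were seen. Add1, which encodes the cytoskeletal protein adducin 1, was at 23.9, 15.7 and 26.4 FPKM in the WT libraries and 15.8, 33.7 and 15.7 FPKM in the CTGF_KO libraries, so the same 3 libraries were high. For Bid, the member with the smallest p, the 3 most alike were B3gnt9, Morf4l1 and Osbpl1a (r of 0.994, 0.991 and 0.989). These r values are the highest over all genes compared, with only 6 libraries each, and describe likeness only.

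At the transcript level, 0 of the 21 listed transcripts passed an adjusted p of 0.05 in limma, against 0.0239% of all transcripts tested. At an unadjusted p under 0.05 the count was 0 (1 without moderation, Bak1-202), against 5.05% of all. The groups did not overlap in 3 of the 21 (Bak1-202 and Bcl2l1-204 higher, Bcl2l1-203 lower), or 14.3%, beside 13.4% of all transcripts (5.9% higher and 7.53% lower). The FPKM of a gene equalled the sum over its transcripts of FPKM times length, divided by the length of all its exons together. This held within 1% for 99.6% of the 505 genes with several annotated transcripts that were all listed. So the share of a gene's signal that its listed transcripts carry could be computed in each library, a measure added after the data were seen.

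Bak1 stood out by this measure, because its listed transcript held a small part of the signal of the gene. Bak1-202 (ENSMUST00000078691.11, 6 exons, 627 coding bases) is the form that encodes full-length BAK1. It was at 1.16, 1.13 and 1.06 FPKM in the WT libraries and 1.67, 1.92 and 1.33 FPKM in the CTGF_KO libraries. All 3 CTGF_KO values lay above all 3 WT values, and the difference was 0.31 (SE 0.17, limma adjusted p = 0.819). Bak1-202 carried 14.6, 13.02 and 11.8% of the Bak1 signal in the WT libraries and 22.97, 16.5 and 15.7% in the CTGF_KO libraries. The share was higher in all CTGF_KO libraries, by 5.24 percentage points in mean. The two-sided exact permutation of 3 against 3 libraries gave p = 0.1, the smallest it can give, and 0.9 after adjustment over the 9 genes. Without CTGF_KO replicate 1 the difference was 2.94 points. Shares did not overlap between the groups in 10.5% of 10218 genes with an annotated transcript that was not listed, and lay higher in CTGF_KO without overlap in 6.93%; 1.79% of these genes had a lower mean share than Bak1.

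Of the other 3 Bak1 transcripts in M21, Bak1-201 and Bak1-204 are classed as subject to nonsense-mediated decay. Bak1-203 is classed as protein coding, with 438 coding bases and the BH3 codons in frame. None of the 3 was analysed here, and which of them held the remaining Bak1 signal was not tested. Listed transcripts were protein coding, so forms classed as subject to decay were not listed whatever their level. Bak1-201 holds a 20-base exon (exon 5 of 7, chr17:27021663-27021682, minus strand) that Bak1-202 lacks and that shifts the reading frame after the BH3 codons. In mice a short exon of this kind is known to be included in neurons, which make little full-length BAK1. It is shown in capitals with 15 bases of the neighbouring exons on either side, because the form without it is the one whose values are given above.
Bak1-201, short exon: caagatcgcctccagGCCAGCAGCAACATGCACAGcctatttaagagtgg
The deposited tables give a Bak1 gene version (ENSMUSG00000057789.13) other than that of M21, while the other 8 genes match by version, so the exon length used for the Bak1 share is that of M21.

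**Figure D3:**
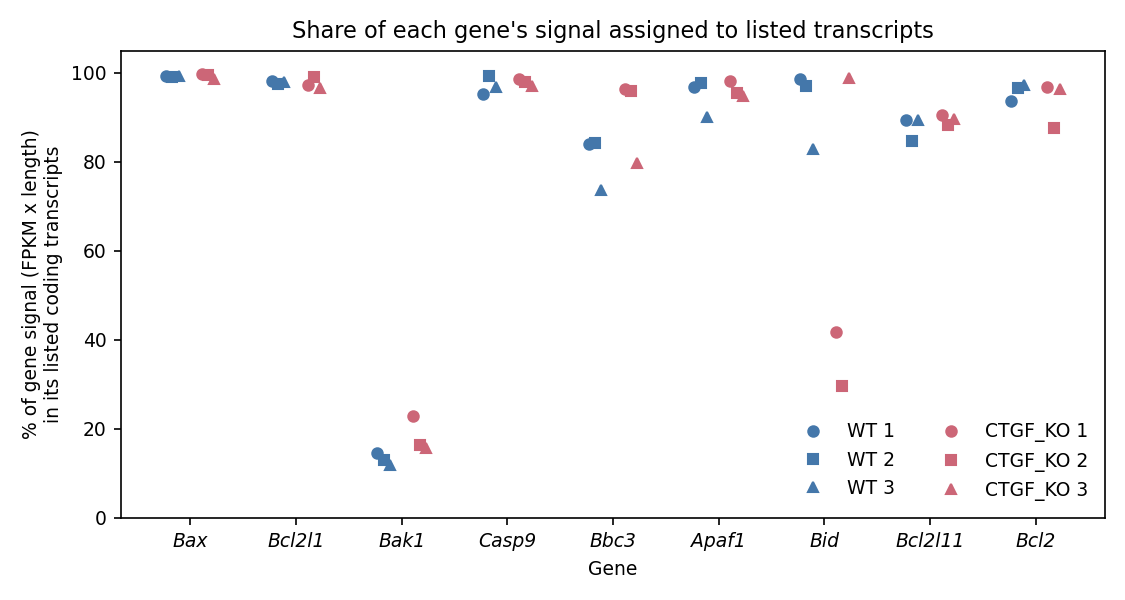
Percentage of each gene's signal (FPKM times length) carried by its transcripts in the deposited transcript table, by library; blue is WT, red CTGF_KO. Bak1 lies at 11.8 to 22.97% in all libraries, and Bid falls to 41.7 and 29.7% in CTGF_KO replicates 1 and 2.

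Bid showed the largest change between libraries in this share. Its 1 listed transcript, Bid-201 (ENSMUST00000004560.11, 6 exons), which holds the BH3 stretch printed above, was at 4.85, 4.103 and 4.37 FPKM in the WT libraries and 1.62, 1.14 and 4.29 FPKM in the CTGF_KO libraries. CTGF_KO replicates 1 and 2 were far below the other 4 libraries, while CTGF_KO replicate 3 was within the WT range. The difference was −0.81 (SE 0.36, limma adjusted p = 0.819), and leaving out 1 library moved it between −1.20 (without CTGF_KO replicate 3) and −0.55. Bid-201 carried 98.6, 97.03 and 82.9% of the Bid signal in the WT libraries and 41.7, 29.7 and 98.8% in the CTGF_KO libraries. The groups overlapped (two-sided exact permutation p = 0.4, and 0.9 after adjustment over the 9 genes). Its mean difference was −36.1 points, −22.6 points without CTGF_KO replicate 2 and −57.1 points without CTGF_KO replicate 3. The FPKM of the whole gene differed far less between these libraries. By this measure, most of the signal in CTGF_KO replicates 1 and 2 was assigned to Bid transcripts not analysed here. The part of reads from the overlapping gene Bcl2l13 in that assignment was not tested. M21 has 4 Bid transcripts besides Bid-201. Among them is Bid-204, of 7 exons, which has 585 coding bases, as many as Bid-201, and is classed as subject to nonsense-mediated decay.

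The two-level pattern of Bcl2l1 was carried by its transcripts with complete coding sequence, Bcl2l1-201 and Bcl2l1-202. Both have 699 coding bases in M21 and differ in the first exon. Bcl2l1-202, the main form, was at 24.5, 13.7 and 25.4 FPKM in the WT libraries and 13.7, 34.5 and 13.5 FPKM in the CTGF_KO libraries. Bcl2l1-201 was at 6.398, 1.63 and 5.77 FPKM in the WT libraries and 2.73, 9.69 and 2.66 FPKM in the CTGF_KO libraries. In both forms WT replicates 1 and 3 and CTGF_KO replicate 2 were the 3 highest libraries. The other 4 listed Bcl2l1 transcripts have a coding sequence without an annotated end and lay between 0.466 and 3.77 FPKM; of these, Bcl2l1-208 lacks the BH3 stretch, and Bcl2l1-207 holds its capitalised codons but ends before the last bases printed. Bcl2l1-204 was at 1.02, 1.58 and 2.003 FPKM in the WT libraries and 2.62, 2.13 and 3.11 FPKM in the CTGF_KO libraries, and its difference of 0.52 (SE 0.22, limma adjusted p = 0.819) had the smallest unadjusted p of the 21 transcripts (0.0583). Bcl2l1-203 went the other way, at 3.77, 3.26 and 3.38 FPKM in the WT libraries and 3.25, 2.46 and 2.63 FPKM in the CTGF_KO libraries, a difference of −0.25 (SE 0.16, limma adjusted p = 0.819). The share of Bcl2l1-202 in the summed transcript FPKM was 60.4% ± 3.36 in WT and 54.9% ± 7.63 in CTGF_KO (SD, n = 3, exact permutation p = 0.4).

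Bax was read through 3 listed transcripts, each with the BH3 stretch. Bax-201, of 576 coding bases, was at 27.98, 24.6 and 36.8 FPKM in the WT libraries and 37.7, 16.1 and 37.2 FPKM in the CTGF_KO libraries. Bax-203, whose coding sequence has no annotated end, was at 16.1, 16.8 and 18.6 FPKM in the WT libraries and 20.8, 25.5 and 12.3 FPKM in the CTGF_KO libraries. In CTGF_KO replicate 2, Bax-201 was at its lowest and Bax-203 at its highest, so Bax-201 made up 33.8% of the summed transcript FPKM there and 55.01 to 70.9% in the other libraries. Bax-205, with 513 coding bases, ranged from 3.01 to 5.97 FPKM, again highest in CTGF_KO replicate 2. The difference of Bax-201 was −0.049 (SE 0.35, limma adjusted p = 0.979), and 0.34 without CTGF_KO replicate 2.

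**Figure D4:**
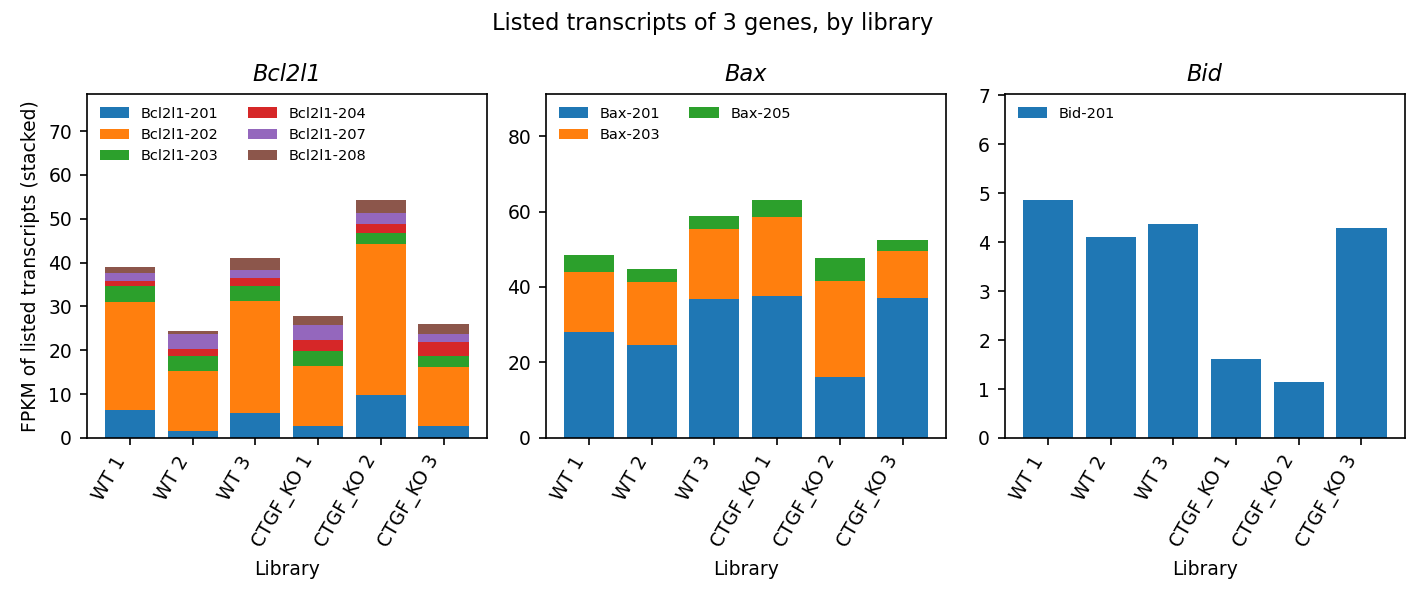
Stacked FPKM of the listed transcripts of Bcl2l1, Bax and Bid in each library, each panel on its own axis from 0. Bcl2l1-202 makes the tall bars of WT replicates 1 and 3 and CTGF_KO replicate 2, Bax-201 is low in CTGF_KO replicate 2, and Bid-201 is low in CTGF_KO replicates 1 and 2.

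The BIM gene Bcl2l11 was listed with 3 transcripts, and 1 of them lacks the BH3 stretch. Bcl2l11-205, of 588 coding bases, was at 4.197, 2.49 and 2.24 FPKM in the WT libraries and 3.44, 1.86 and 2.05 FPKM in the CTGF_KO libraries. Bcl2l11-203, of 420 coding bases, also holds the stretch and was at 0.599, 0.492 and 2.73 FPKM in the WT libraries and 0.858, 0.649 and 1.62 FPKM in the CTGF_KO libraries. Bcl2l11-202, whose complete coding sequence of 273 bases ends before it, was at 0.432, 0.949 and 1.07 FPKM in the WT libraries and 0.513, 0 and 0.5398 FPKM in the CTGF_KO libraries, where the 0 is as listed and may be a failed estimate. Its difference was −0.44 (SE 0.25, limma adjusted p = 0.819). It depended on the pseudocount, at −1.35 with 0.1 FPKM and −0.67 with 0.5 FPKM, and was −0.23 without CTGF_KO replicate 2, the library at 0. The share of Bcl2l11-205 in the summed transcript FPKM ran from 37.1 to 80.3%, both in WT libraries, so the mix varied more within WT than between the groups.

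For Bbc3, Bbc3-201 carries the BH3 stretch and was at 6.03, 5.14 and 5.09 FPKM in the WT libraries and 6.47, 8.52 and 5.36 FPKM in the CTGF_KO libraries, while Bbc3-202, annotated without its end and without the stretch, stayed between 0.764 and 1.32 FPKM. Bcl2-201, the 1 listed Bcl2 transcript, was at 1.16 to 1.93 FPKM. Apaf1-201 and Apaf1-202, of 3747 coding bases each, were at 2.47 ± 1.05 FPKM over the WT and 2.26 ± 0.837 FPKM over the CTGF_KO libraries (SD, n = 3), and at 3.51 ± 1.23 FPKM over the WT and 3.11 ± 1.12 FPKM over the CTGF_KO libraries (SD, n = 3). For Casp9, the stretch that encodes the active-site cysteine of the caspase is shown. The stretch, with the codons around that cysteine in capitals, spans an exon junction (chr4:141807241-141811543, plus strand, intron included) and is present in Casp9-201. It is absent from Casp9-206, whose coding sequence has no annotated end. The annotated Casp9-206 stops at base 141805442, before the stretch, so it is an incomplete model.
Casp9-201, active site: ttcatcCAGGCCTGCGGTGGTgagcag
Casp9-201 was at 9.89, 9.801 and 9.02 FPKM in the WT libraries and 9.58, 10.03 and 9.15 FPKM in the CTGF_KO libraries, and its difference was 0.0020 (SE 0.10, limma adjusted p = 0.997). Casp9-206 was at 0.818, 3.504 and 1.48 FPKM in the WT libraries and 1.56, 1.01 and 0.853 FPKM in the CTGF_KO libraries, with WT replicate 2 above all other libraries. Of the 18 shares of transcripts in the 6 genes with more than 1 listed transcript, 0 differed without overlap between the groups, beside 10.7% of the shares of all genes with 2 or more listed transcripts. The exact permutation p of these shares was 0.2 to 1, and 1 after adjustment over them.

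The other genes of the pathway were read from 9 lists grouped by role, of which 89 of 108 genes were tested. In limma, 0 of the 89 passed the adjusted threshold in either direction. At an unadjusted p under 0.05, 2 were higher in CTGF_KO and 6 lower, or 2.25% and 6.74%, beside 3.83% and 5.49% of all genes. The split of all genes at that p was 495 higher and 709 lower, and 185 and 1294 with equal FPKM totals. The median difference of the 89 genes was −0.059. The groups did not overlap in 3 of the 89 that were higher and 13 that were lower. Over all 12915 genes they did not overlap in 18.5%, 972 higher and 1414 lower. The genes named below were those of smallest p in each list, which favours groups apart, and not every gene apart is marked.

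Relatives of the BCL2 family were tested in 12 of 17 cases, with 0 at an unadjusted p under 0.05 and a median difference of −0.021. Bcl2l2, which encodes the survival protein BCL-W, varied most, at 15.7, 5.62 and 15.8 FPKM in the WT libraries and 6.65, 2.16 and 15.2 FPKM in the CTGF_KO libraries. The libraries of both groups were split between high and low values, and the within-group SD was above that of 99.5% of genes. In M21 Bcl2l2 shares 594 exon bases with Gm20521 on the same strand, so its reads could be divided differently. Bnip3l, a mitophagy receptor gene, was at 62.9 ± 6.01 FPKM over the WT and 56.8 ± 5.42 FPKM over the CTGF_KO libraries (SD, n = 3), and Bik, a BH3-only gene, at 0.756 ± 0.209 FPKM over the WT and 1.02 ± 0.151 FPKM over the CTGF_KO libraries (SD, n = 3). Of the other caspases and cytochrome c, 6 of 9 genes were tested, all 6 were lower in mean, and 0 were at an unadjusted p under 0.05. Casp8 was at 0.791 ± 0.152 FPKM over the WT and 0.608 ± 0.0649 FPKM over the CTGF_KO libraries (SD, n = 3) and Casp6 at 2.998 ± 0.471 FPKM over the WT and 2.63 ± 0.214 FPKM over the CTGF_KO libraries (SD, n = 3).

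Among inhibitors of apoptosis and their antagonists, 6 of 11 genes were tested and 1 was lower at an unadjusted p under 0.05. This was Birc5, which encodes survivin, a protein also needed for cell division, at 4.07, 5.405 and 3.15 FPKM in the WT libraries and 2.77, 2.85 and 3.104 FPKM in the CTGF_KO libraries. CTGF_KO replicate 3 lay just below the lowest WT library, and the difference was −0.39 (SE 0.16, limma adjusted p = 0.533). All 6 markers of dividing progenitors were also lower in mean, 2 of them at an unadjusted p under 0.05, and their summed level lay between 65.8 and 99.6 FPKM in WT libraries and between 67.02 and 72.6 FPKM in CTGF_KO libraries. Their part in the Birc5 value was not tested. Birc6 was at 9.39 ± 0.455 FPKM over the WT and 8.34 ± 0.798 FPKM over the CTGF_KO libraries (SD, n = 3), and Htra2, a mitochondrial protease gene, at 4.64 ± 0.211 FPKM over the WT and 5.84 ± 1.7004 FPKM over the CTGF_KO libraries (SD, n = 3). In the death receptor pathway, 8 of 11 genes were tested, and Tnfrsf21, which encodes death receptor 6, was the 1 at an unadjusted p under 0.05. It was at 5.38, 6.05 and 7.23 FPKM in the WT libraries and 4.09, 4.63 and 4.78 FPKM in the CTGF_KO libraries. The groups did not overlap, and the difference was −0.39 (SE 0.12, limma adjusted p = 0.533).

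Of the regulators upstream of the BH3-only genes, 15 of 17 were tested, and 1 was at an unadjusted p under 0.05. Atf4, a transcription factor gene of the integrated stress response, was at 145, 130 and 148 FPKM in the WT libraries and 164, 179 and 160 FPKM in the CTGF_KO libraries. All CTGF_KO values lay above all WT values, and the difference was 0.25 (SE 0.090, limma adjusted p = 0.533). Mapk9, which encodes a JNK kinase, was at 9.44 ± 0.694 FPKM over the WT and 7.997 ± 0.674 FPKM over the CTGF_KO libraries (SD, n = 3), and Mdm4, which encodes an inhibitor of p53, at 11.2 ± 0.405 FPKM over the WT and 9.64 ± 1.297 FPKM over the CTGF_KO libraries (SD, n = 3). Among DNA fragmentation genes and caspase substrates, all 8 were tested and 0 reached an unadjusted p under 0.05. Dffa, which encodes the inhibitor of the caspase-activated DNase, was at 8.47, 8.35 and 7.44 FPKM in the WT libraries and 9.92, 9.09 and 9.29 FPKM in the CTGF_KO libraries, without overlap between the groups, and its difference was 0.20 (SE 0.086, limma adjusted p = 0.533). The other genes nearest the threshold in this list were Endog, at 5.29 ± 0.789 FPKM over the WT and 6.13 ± 0.654 FPKM over the CTGF_KO libraries (SD, n = 3), and Rock1, at 18.03 ± 1.84 FPKM over the WT and 15.9 ± 2.25 FPKM over the CTGF_KO libraries (SD, n = 3).

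Mitochondrial gates and BCL2 partners were tested in all 10 cases, and 1 was lower at an unadjusted p under 0.05. Dnm1l, the mitochondrial fission GTPase gene, was at 47.8, 48.5 and 46.5 FPKM in the WT libraries and 43.5, 35.1 and 41.9 FPKM in the CTGF_KO libraries. All CTGF_KO libraries lay below all WT libraries, with CTGF_KO replicate 2 the lowest, and the difference was −0.24 (SE 0.096, limma adjusted p = 0.533). Opa1, the inner membrane fusion gene, was at 17.5 ± 0.212 FPKM over the WT and 15.6 ± 1.05 FPKM over the CTGF_KO libraries (SD, n = 3), and Bag3, a co-chaperone gene, at 1.01 ± 0.0516 FPKM over the WT and 0.749 ± 0.185 FPKM over the CTGF_KO libraries (SD, n = 3). Trophic receptors and their kinases were tested in 12 of 13 cases, and 1 gene, not reported here, was lower at an unadjusted p under 0.05. The neurotrophin receptor genes Ntrk3 and Ntrk2 did not reach an unadjusted p under 0.05, with Ntrk3 at 1.28 ± 0.0249 FPKM over the WT and 0.972 ± 0.1397 FPKM over the CTGF_KO libraries (SD, n = 3) and Ntrk2 at 3.32 ± 0.635 FPKM over the WT and 2.596 ± 0.314 FPKM over the CTGF_KO libraries (SD, n = 3).

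Genes for the clearance of dead cells were tested in all 12 cases, with 1 higher and 2 lower at an unadjusted p under 0.05. Megf10, an engulfment receptor gene, was at 9.305, 10.7 and 9.65 FPKM in the WT libraries and 7.68, 6.45 and 8.64 FPKM in the CTGF_KO libraries, a difference of −0.35 (SE 0.12, limma adjusted p = 0.533). Dock1, which activates Rac during engulfment, was at 2.47 ± 0.203 FPKM over the WT and 1.87 ± 0.195 FPKM over the CTGF_KO libraries (SD, n = 3), a difference of −0.27 (SE 0.099, limma adjusted p = 0.533). Itgb5, an integrin chain used in uptake of outer segments by the pigment epithelium, went the other way, at 22.1 ± 0.888 FPKM over the WT and 25.6 ± 1.78 FPKM over the CTGF_KO libraries (SD, n = 3), a difference of 0.20 (SE 0.082, limma adjusted p = 0.533). In these 3 genes the groups did not overlap. The 7 listed microglia markers had a summed level between 29.7 and 37.5 FPKM in WT libraries and between 37.8 and 42.5 FPKM in CTGF_KO libraries, and the 4 listed Mueller glia markers had one of 238 to 264 and 247 to 254 FPKM. That of the 3 listed pigment epithelium markers was 11.7 to 17.2 and 16.1 to 18.1 FPKM, with Rpe65 and Best1 not tested. In the mean of log2(FPKM + 1) over the markers, the groups overlapped for each of these sets, microglia included. The part of these cells in the clearance genes was not tested.

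**Figure D5:**
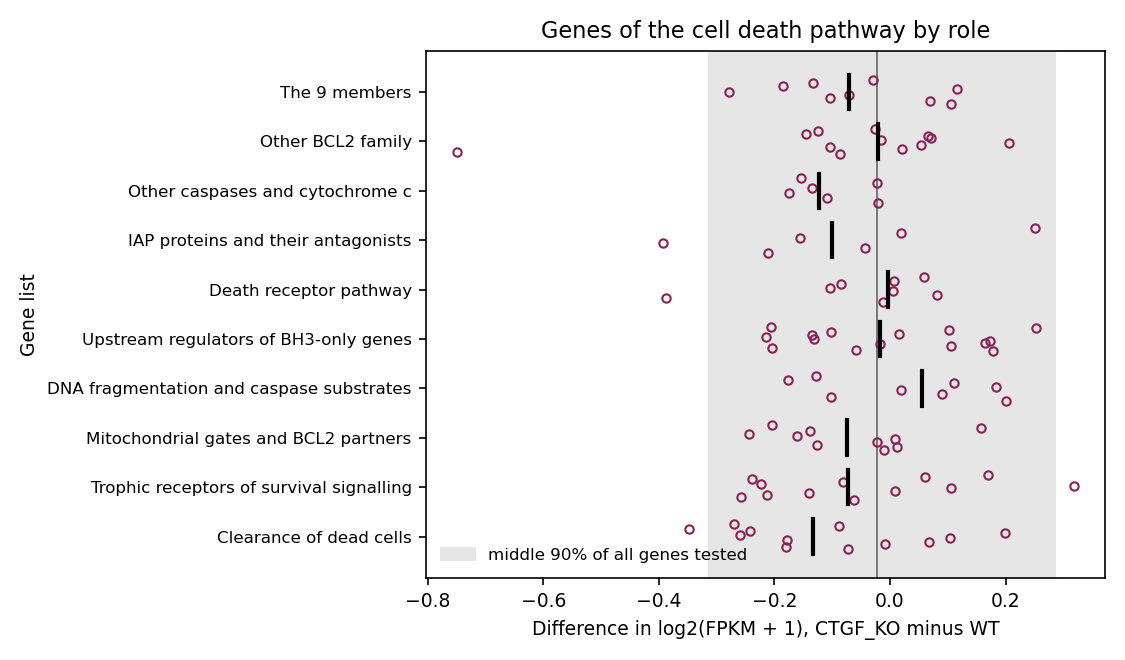
Difference in mean log2(FPKM + 1), CTGF_KO minus WT, for each tested gene (circles) of the 9 genes and of each pathway list, with list medians (black bars); the grey band holds the middle 90% of all genes tested and the thin line their median. All 9 genes lie inside the band, from −0.28 for Bcl2l11 to 0.12 for Bbc3.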

How the data were processed

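Retinal RNA of 3 WT and 3 CTGF_KO libraries was compared. Per the submitters' processing notes, reads were checked with FastQC, trimmed with cutadapt, aligned to GRCm38 with HISAT2 and quantified with StringTie, and the series' design text adds Ballgown. No version of these tools was stated there. The authors deposited FPKM per gene and per transcript, with group means and fold changes on a log2 scale, p-values and q-values, per the file headers. The group means and log2 fold changes are of log2(FPKM + 1): the deposited log2 difference equalled the recomputed one to within 6.22e-15. The deposited p-values and q-values were not used for results. The lowest higher group mean was 0.5 FPKM, and listed transcripts were protein coding.

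limma 3.58.1 in R 4.3.3 (lmFit, eBayes with trend) was fitted to log2(FPKM + 1) of the features that averaged 0.5 FPKM or more over all libraries, with Benjamini-Hochberg adjustment over all of them and a threshold of 0.05. Transcript shares were compared by two-sided exact permutation, for which the smallest p is 0.1. The model was tested on simulated data. Annotation and sequences came from GENCODE M21 on GRCm38. Named genes were the 9 members, their listed transcripts, the 3 genes of smallest p of each pathway list (some are not reported here), and the 3 genes most alike to the member of smallest p. The members and lists were chosen with earlier results of these data known. Alternatives were other pseudocounts, filters and scalings, no moderation, a replicate block, and leaving out each library.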

Additional observations from a re-analysis of the deposited data

How the results depend on the processing

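No member gene or transcript passed an adjusted p of 0.05 in limma under any alternative run; the lowest adjusted p was 0.432 (Bid, equal FPKM totals). Of all genes, 6 passed with all libraries, 1 without moderation, 2 with the replicate block and 2 to 9 leaving out 1 library (2 without any one WT library). Of all transcripts, 6 passed, 2 without moderation, 0 with the replicate block and 1 to 7 leaving out 1 library (1 without WT replicate 1 or 3, 3 without CTGF_KO replicate 2). Member genes at an unadjusted p under 0.05 were 0, but 1 with equal FPKM totals (Bid, limma adjusted p = 0.432), 1 with the replicate block (Bcl2l11, limma adjusted p = 0.512) and 0 to 1 leaving out 1 library (Bcl2l11 without CTGF_KO replicate 1). The share of all genes at that p was 11.5%, 9.28% and 11.1% in those 3 settings, so 1 of 9 is near the background. Member transcripts at that p were 0, but 1 with equal FPKM totals (Bid-201), 1 without moderation (Bak1-202) and 0 to 2 leaving out 1 library: Bcl2l1-204 and Bcl2l1-208 without WT replicate 3, Bcl2l1-204 without CTGF_KO replicate 2, and Bid-201 and Bax-203 without CTGF_KO replicate 3. The share of all transcripts in those 5 settings was 5.598%, 5.93%, 4.67%, 4.87% and 5.37%. Transcript shares without overlap were 0, and 0 to 3 leaving out 1 library (3 without WT replicate 1 or CTGF_KO replicate 2, 2 without WT replicate 3 or CTGF_KO replicate 3), of 18, beside 18.5 to 24.8% of all shares. The cause of these changes was not tested, though a group of fewer libraries overlaps less by construction. Bbc3-202 and Bcl2l11-202 fell below a filter of 1 FPKM. Libraries share only a replicate number: deviations of same-numbered libraries correlated at 0.013, 0.17 and −0.16 for genes. WT replicate 2 alone correlated best with its own number. The highest correlation was 0.37, between WT replicate 1 and CTGF_KO replicate 3.

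Signs turned at equal FPKM totals for Bak1 (−0.0065), Bcl2l1-201 (−0.023) and Casp9-201 (−0.081), and with a pseudocount of 0.1 FPKM for Bcl2l11-203 (0.025). Leaving out 1 library turned a sign for these differences, whose ranges were −0.10 to 0.20 for Bak1, −0.46 to 0.13 for Bcl2l1, −0.31 to 0.072 for Apaf1, −0.25 to 0.34 for Bax-201, −0.092 to 0.41 for Bax-203, −0.46 to 0.32 for Bcl2l1-201, −0.56 to 0.089 for Bcl2l1-202, −0.033 to 0.37 for Bcl2l1-207, −0.29 to 0.37 for Bcl2l11-203, −0.40 to 0.0091 for Bcl2l11-205, −0.071 to 0.13 for Bbc3-202, −0.27 to 0.15 for Apaf1-201, −0.35 to 0.073 for Apaf1-202 and −0.036 to 0.032 for Casp9-201. The difference in the Bak1 share was 2.94 to 6.58 points, and in the Bid share −57.1 to −22.6. Without counts, depth cannot be read, and 3 libraries a group leave intervals as wide as that of Bcl2l1.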
